A study of Mus musculus with 12 samples.

Results

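The genes of the beta-catenin destruction complex and of Wnt feedback were followed in the RNA of murine eyes and cerebellar tumors. They are *Ctnnb1*, *Apc*, *Axin1*, *Gsk3b*, *Amer1*, *Axin2*, *Lef1*, *Nkd1* and *Rnf43*, taken by symbol, and all 9 are among the 770 genes of the murine PanCancer Pathways panel, an nCounter assay that counts RNA molecules by color-coded probes without amplifying them. Values are a background-subtracted, normalized signal on the linear scale, and each gene is read by its own probe, so a ratio of 2 genes is compared between samples only and is not read as their relative abundance. *RBS* lesions (*n* = 5) are eyes of *Rax-creERT2::Ctnnb1(ex3)Fl/+SmoM2Fl/+* embryos whose dams received tamoxifen at E8.5. Control eyes (*n* = 4) carry the same floxed alleles, *Ctnnb1(ex3)Fl/+SmoM2Fl/+*, without the Cre driver, and eyes of both groups were taken at E18.5. Whether the dams of the control embryos received tamoxifen is not in the sample labels, and the part of tamoxifen itself was not tested. Shh-MBs (*n* = 3) are cerebellar tumors of *hGFAP-cre::SmoM2Fl/+* mice at 14 days, whose *Ctnnb1* was not engineered. Each sample came from an individual animal. The *Rax* promoter drives the recombinase in retinal precursors, so a whole *RBS* eye also holds cells that were never recombined. SmoM2 is an active form of Smoothened that switches on Sonic hedgehog signaling once Cre has acted. The Shh-MBs differ from the eyes in tissue, age and genotype together, and the parts of these cannot be told apart.

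Beta-catenin, the product of *Ctnnb1*, carries the canonical Wnt signal to the nucleus and also links cadherins to the cytoskeleton. Without Wnt, the scaffolds Axin and Apc hold it beside the kinase Gsk3b, which phosphorylates residues encoded by exon 3 and so marks it for degradation, while Amer1 takes part in the complex at the membrane. With Wnt, or without exon 3, beta-catenin escapes degradation and acts with Tcf/Lef factors on target genes. Several targets act back on the pathway: *Axin2* renews the scaffold, *Nkd1* restrains Dishevelled, *Rnf43* removes Frizzled receptors from the cell surface, and *Lef1* is itself a partner of beta-catenin. In the embryonic eye Wnt signaling is known for its part at the retinal margin and in the pigment epithelium.

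In the RefSeq annotation of GRCm38.p6, *Ctnnb1* spans chr9:120933400-120960507, *Gsk3b* chr16:38089001-38246084, *Axin1* chr17:26131217-26195811, *Amer1* chrX:95420313-95444840, *Axin2* chr11:108917828-108950783, *Lef1* chr3:131110297-131224357, *Nkd1* chr8:88521342-88594887 and *Rnf43* chr11:87663087-87735539. Since several of the genes rose together in *RBS* lesions, the 250 bases before their annotated starts were searched on both strands for the letters that Tcf/Lef factors are known to bind, CTTTGAA or CTTTGAT and likewise CTTTGTA or CTTTGTT, and for the core CTTTG inside each of them. RefSeq windows were used for 6 of the 9 genes, 11 windows in all. A match to the longer letters lay in 1 of the 11, before an internal start of *Lef1*, and such a match lies in 14.8% of all 32851 windows of that length. The core was found in 5 of the 11 and in 48.6% of all windows. The 5 are the windows of *Lef1* and that of *Gsk3b*, and overlapping *Lef1* windows share a match, so these shares are not directly comparable. All the windows used are on the plus strand. Windows are shown for *Lef1* and *Axin2*, the feedback genes with the largest differences of *RBS* lesions to Shh-MBs and to control eyes. Further *Lef1* windows, not shown, hold the core alone. In the windows shown, a matched stretch is in capitals, the longer letters where a window has them and otherwise the core. The first precedes the first *Lef1* start, with the core at 161 bases before it. The next precedes an internal *Lef1* start, with TACAAAG, the reverse complement of CTTTGTA, at 147 bases before it, and it holds the core at 2 further places, left in lower case. The last precedes an *Axin2* start that lies inside the span given above, and it holds neither set of letters.
Lef1, chr3:131110047-131110296: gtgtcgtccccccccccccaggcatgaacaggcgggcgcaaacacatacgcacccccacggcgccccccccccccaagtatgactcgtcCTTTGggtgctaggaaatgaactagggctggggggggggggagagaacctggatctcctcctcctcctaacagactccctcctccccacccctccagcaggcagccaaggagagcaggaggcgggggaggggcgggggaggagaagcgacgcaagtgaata
Lef1, chr3:131156044-131156293: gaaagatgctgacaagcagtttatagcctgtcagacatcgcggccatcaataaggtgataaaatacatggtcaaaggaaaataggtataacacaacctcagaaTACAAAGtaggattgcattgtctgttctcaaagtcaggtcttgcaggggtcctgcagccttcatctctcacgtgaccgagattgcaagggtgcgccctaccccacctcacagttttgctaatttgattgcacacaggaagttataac
Axin2, chr11:108920099-108920348: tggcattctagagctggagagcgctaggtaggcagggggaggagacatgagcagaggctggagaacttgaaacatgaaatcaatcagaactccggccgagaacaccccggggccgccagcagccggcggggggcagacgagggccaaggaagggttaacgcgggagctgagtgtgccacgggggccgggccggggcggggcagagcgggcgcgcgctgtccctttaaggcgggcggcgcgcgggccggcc
These matches are descriptions of letters and say nothing of binding in these tissues.

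Depth, taken as the total signal over the step between neighbouring low values, was 335392 to 716684 counts above background, lowest in *RBS* 1. One step was 0.81 to 1.64 units of signal, so a value of several units is only a handful of counts. The panel holds little to check the tissue labels: of 14 retinal markers it has *Fgf15* alone, at 835 to 1094 in control eyes, 74.6 to 152 in *RBS* lesions and at 1.0 to 4.87 in the Shh-MBs, and of 8 lens markers none. Of 8 markers of cerebellar granule cell precursors it has *Zic2*, at 924 to 1142.4 in Shh-MBs and 223 to 385 in the eyes. The summed signal of 7 neuronal markers was 965 to 1070.3 in control eyes, 2829 to 3737 in *RBS* lesions and between 1124.1 and 1607.6 in Shh-MBs. Blood and immune markers (4 of 11 on the panel) summed to 83.7 to 118, 164 to 218 and 107 to 223 in the same order. Skeletal muscle markers (2 of 10) stayed at 25.1 or less, with *Cacng6* at the lowest value of every sample. In these bulk samples, fewer cells of a type and less RNA per cell cannot be told apart.

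In *RBS* lesions against control eyes, 4 of the 5 genes of the complex other than *Axin2* were higher, *Ctnnb1*, *Apc*, *Gsk3b* and *Amer1*, by 1.4-fold to 1.52-fold, while *Axin1* differed by less than the spread between samples. *Axin2* rose most, by 1.9-fold. *Lef1*, *Nkd1* and *Rnf43* did not pass the test. Thus 5 of 9 were called higher and 0 lower by limma at an adjusted *p* of 0.05 over all genes, where 33.0% of the panel was called higher, 18.2% lower and 51.2% in either direction. The median log2 difference of the 9 genes was 0.48, and that of all genes was 0.17. The test and its intervals are two-sided, and folds are taken from log2(signal + 1).

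The targeted gene, *Ctnnb1*, had signals of 8226, 7713, 7400.2, 8364 and 8080.3 in *RBS* lesions and of 5869, 5655, 5467 and 5761 in control eyes. All *RBS* lesions lay above all control eyes, with 4 of the 9 genes free of overlap against 43.4% of the panel. The log2 difference was 0.48 (SE 0.0746, 95% confidence interval 0.31 to 0.65, limma adjusted *p* = 0.00063). Where the *Ctnnb1* probe lies relative to exon 3 is not given in the sources used here, so its signal does not check the deletion. *Gsk3b*, the kinase of the complex, had 1659.7, 1815, 1759.8, 1937 and 1838 in *RBS* lesions and 1339, 1253, 1106 and 1193 in control eyes. Here too the groups were apart, by 0.56 on the log2 scale (SE 0.0874, adjusted *p* = 0.000648). Both differences stayed past the threshold under each of 3 other scalings of the samples, at 0.30 to 0.48 for *Ctnnb1* and 0.38 to 0.50 for *Gsk3b*.

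*Apc*, a scaffold that binds beta-catenin, had 1418 in *RBS* 1 and 2397, 2200.5, 2035 and 2486 in the other *RBS* lesions, against 1453, 1579, 1160.3 and 1288 in control eyes. *RBS* 1 lay within the range of the control eyes and the remaining lesions above it. The difference of 0.60 (SE 0.177, adjusted *p* = 0.0183) was past the threshold, but not without control eye 3 (0.53, adjusted *p* = 0.0551) or with each sample centred on its median (0.42, adjusted *p* = 0.103). *Amer1*, the membrane-associated member, had 232, 292, 254, 285 and 297 in *RBS* lesions and 187, 209, 156 and 218 in control eyes. The groups did not overlap and differed by 0.50 (SE 0.125, adjusted *p* = 0.00873), a call that median centring ended (0.32, adjusted *p* = 0.0777). *Axin1*, the constitutive scaffold, had 188 to 234 in *RBS* lesions, and control eyes had 189 to 211. These ranges overlap almost entirely, and the difference of 0.07 has an interval of -0.13 to 0.26 (adjusted *p* = 0.557), with its sign turned by median centring (-0.11) and quantile normalization (-0.07).

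Among the feedback genes, *Axin2* had 186, 151, 191, 228 and 172 in *RBS* lesions and 95.6, 90.6, 92.8 and 108 in control eyes. The lowest *RBS* lesion was well above the highest control eye. The log2 difference was 0.92 (SE 0.124, interval 0.64 to 1.2, adjusted *p* = 0.000292), rank 123 of 770 from the highest, and 0.73 to 0.86 with each of the 3 other scalings, past the threshold in all. *Lef1*, the Tcf/Lef factor, had 36.6 in *RBS* 1, then 54.3, 57.7, 83.2 and 49.9, and 34.6, 42.9, 43.9 and 34.5 in control eyes. *RBS* 1, the sample of lowest depth, was within the control range and the 4 remaining lesions above it. The difference of 0.48 (SE 0.212, interval 0.0 to 0.96) did not pass (adjusted *p* = 0.0889), and without *RBS* 1 it was 0.62 with an adjusted *p* of 0.019.

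*Nkd1*, the Dishevelled antagonist, had 84.2, 73.8, 85.0, 85.6 and 49.0 in *RBS* lesions and 75.6, 80.4, 60.9 and 68.8 in control eyes. *RBS* 1, 3 and 4 were just above the control range, *RBS* 2 was within it and *RBS* 5 below it. The difference of 0.06 has an interval of -0.35 to 0.46 (adjusted *p* = 0.81) and turned negative under all 3 other scalings (-0.12 to -0.0044). *Rnf43*, the receptor ligase, was near the floor everywhere, at 1.0 to 8.67 in *RBS* lesions, and control eyes were at 1.17 to 8.42, with *RBS* 2 and control eye 1 at the lowest value of their sample. With values of a few steps, the interval of its difference ran from -0.96 to 1.55, and no change was detectable at this depth. The neuronal markers moved with these results: 6 of 7 were higher in *RBS* lesions, with a median log2 difference of 1.70, and *Fgf15* was lower (-2.89). Of 12 mesenchymal markers 2 were higher and 3 lower, with sums of 26750 to 60100 in control eyes and 22064 to 39213 in *RBS* lesions, and of 8 markers of the surface epithelium 4 were higher and 0 lower, with sums of 343 to 681 and 629 to 1139.4. Their part in the differences was not tested.

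**Figure D1:**
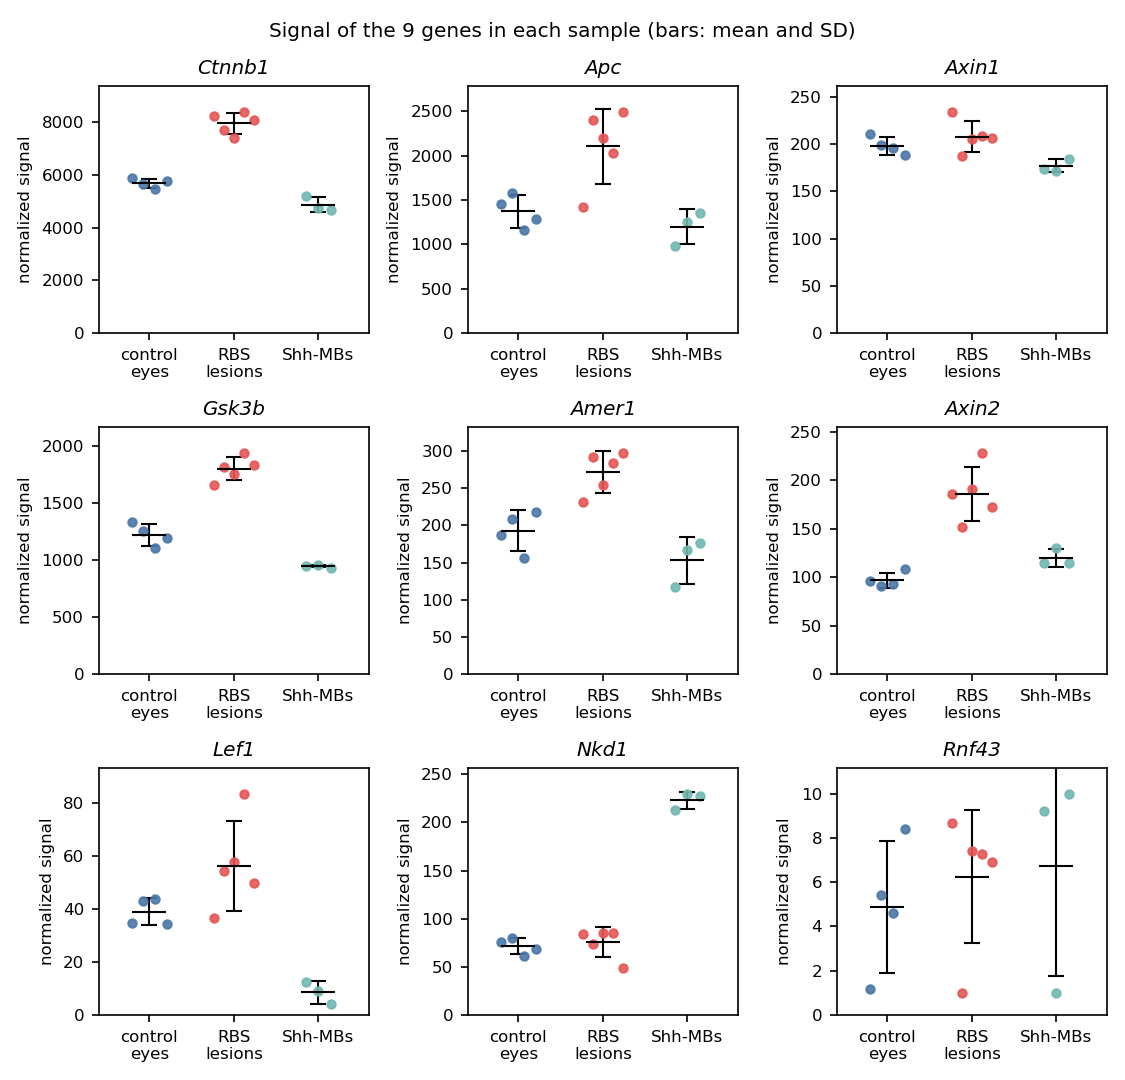
Normalized signal (linear axis from 0) of the 9 genes in each of 4 control eyes, 5 *RBS* lesions and 3 Shh-MBs, one point per sample, with the group mean and SD as bars. *Axin2*, *Ctnnb1*, *Gsk3b* and *Amer1* separate *RBS* lesions from control eyes, *Nkd1* is highest and *Lef1* lowest in Shh-MBs, and *Rnf43* stays at 9.96 or less in all samples.

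The genes of the complex differed in how much they varied among *RBS* lesions. The coefficient of variation was 4.96% for *Ctnnb1*, 5.67% for *Gsk3b*, 7.84% for *Axin1* and 10.3% for *Amer1*. *Axin2* had 15.1%, *Apc* 20.1%, *Nkd1* 20.7%, *Lef1* 30.2% and *Rnf43*, near the floor, 48.2%. For *Apc*, *Nkd1* and *Rnf43* a lesion lay far below the rest, *RBS* 1, *RBS* 5 and *RBS* 2 in turn. Control eyes and Shh-MBs had 13.4% and 16.3% for *Apc*, 14.2% and 20.8% for *Amer1* and 13.2% and 50.4% for *Lef1*. The lesions were therefore not the most variable group for every gene. *RBS* 1 was lowest for *Apc*, *Gsk3b*, *Amer1* and *Lef1* and highest for *Axin1*, whereas *RBS* 4 was highest for *Ctnnb1*, *Gsk3b*, *Axin2*, *Lef1* and *Nkd1*.

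Of other genes that control beta-catenin turnover, 10 of 29 listed are on the panel, and 7 of these were called higher in the *RBS* lesions, 0 lower, to be read, like the counts of the lists after it, beside the 33.0% and 18.2% of the whole panel called higher and lower. *Dvl3*, a Dishevelled that relays the receptor signal, rose from 212 ± 14.5 to 330 ± 10.6 (mean ± SD). *Rbx1*, of the ubiquitin ligase that takes up phosphorylated beta-catenin, rose from 559 ± 32.2 to 873 ± 91.4, and *Ppp2r1a*, a phosphatase scaffold, from 3209 ± 166 to 4871 ± 509. The list's median of 0.48 equals that of the 9 genes. With median centring 6 of these 10 rose and 1 fell, and with quantile normalization 7 rose and 1 fell. Of 9 nuclear partners of beta-catenin, 4 rose and 0 fell, among them *Tbl1xr1* (0.57), a transcription cofactor, *Tcf7l1* (0.48), a Tcf repressor, and *Ep300* (0.40), an acetyltransferase. With median centring 1 rose and 1 fell of these 9, and with quantile normalization 3 rose and 2 fell. Of 6 Wnt receptors on the panel 3 rose, *Fzd9* from 16.8 ± 8.99 to 67.1 ± 3.71, *Fzd3* from 792 ± 119 to 1622 ± 215, and *Fzd8* from 6.42 ± 3.56 to 14.4 ± 4.25. The *Fzd8* values are near the floor, its groups overlap, and its call was kept by 1 of the 3 other scalings, so that 2 of 6 receptors were called with median centring or quantile normalization.

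Of 8 other feedback genes on the panel 1 rose, 4 fell and 3 were not called, with a median of -0.77, where 18.2% of the panel fell. The extracellular inhibitor *Wif1* rose from 55.3 ± 27.1 to 133 ± 24.1. *Dkk2*, which acts on the co-receptor Lrp6, fell from 518 ± 91.5 to 196 ± 30.3. The decoy *Sfrp2* fell from 1000 ± 140 to 478 ± 135, and *Bambi*, a pseudoreceptor of the TGF-beta family, from 123 ± 17.9 to 63.1 ± 15. Of 18 further genes that Wnt signaling can induce, 5 rose and 4 fell, with a median of 0.05. With median centring 4 rose and 6 fell (median -0.13), and with quantile normalization 3 rose and 5 fell (median -0.12). The rises included *Tnc*, a matrix glycoprotein (1.34), *Fst*, an activin antagonist (1.31), and *Ppargc1a*, a mitochondrial coactivator (1.06). The falls included the cyclin *Ccnd1* (-2.91, from 13870 ± 1830 to 1856 ± 374), the growth factor *Fgf9* (-2.18) and *Mycn* (-0.87), a transcription factor of proliferating progenitors. Of 8 genes that hold beta-catenin at cell contacts the panel has only *Cdh1*, E-cadherin, which was not called (0.57).

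Against Shh-MBs, which carry SmoM2 but no engineered *Ctnnb1*, the feedback genes split. *Lef1* was 6.3-fold higher in *RBS* lesions, *Nkd1* was 2.99-fold higher in Shh-MBs, and both kept direction and call under all 3 other scalings. On the deposited scale *Ctnnb1*, *Apc*, *Axin2*, *Gsk3b* and *Amer1* were also higher in *RBS* lesions, but with each sample centred on its median *Ctnnb1*, *Apc*, *Axin2* and *Amer1* lay slightly lower (-0.23 to -0.005) and *Gsk3b* at 0.08, none of them past the threshold. In all 6 were called higher and 1 lower of 9, where 48.1% of the panel was called higher, 12.7% lower and 60.8% in either direction, and 8 did not overlap, where 59.9% of the panel did not. The members' median was 0.71 and that of all genes 0.53. Of all calls 79.1% were higher in *RBS* lesions as deposited, 36.2% with median centring, 46.2% with quantile normalization and 62.5% scaled by the summed signal of all but the 3 most abundant genes. The median of all genes was then -0.32, -0.10 and 0.19. Both comparisons of *RBS* lesions use the same 5 lesions and are not independent.

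*Lef1* had 12.6, 8.97 and 4.03 in the 3 Shh-MBs, about 11.2, 9.57 and 4.75 steps of those samples. Every Shh-MB lay below every eye, whose lowest value was 34.5. The log2 difference of *RBS* lesions to Shh-MBs was 2.66 (SE 0.357, interval 1.83 to 3.48, limma adjusted *p* = 0.000301), and it ranged from 1.29 to 2.31 with the other scalings and was 1.40 with values under 20 set to 20. Mesenchymal markers moved with it: 11 of 12 were higher and 1 lower in *RBS* lesions, with a summed signal of 22064 to 39213 against 1875.4 to 2627.8. Markers of the surface epithelium, 8 on the panel, summed to 629 to 1139.4 in *RBS* lesions and only 20.9 to 26.3 in Shh-MBs, where *Itga2* and *Calml3* were at the lowest value in every sample. The part of these cells in the *Lef1* difference was not tested.

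*Nkd1* had 213, 229 and 228 in Shh-MBs, all above the highest eye at 85.6. It was lower in *RBS* lesions by a log2 difference of -1.58 (SE 0.195, interval -2.03 to -1.13, adjusted *p* = 0.000194), rank 28 from the lowest of 770, and by -2.43 to -1.95 with the other scalings. The granule cell precursor marker *Zic2* moved the same way, at 924 to 1142.4 in Shh-MBs and 255 to 385 in *RBS* lesions, and its part was not tested. *Axin2*, at 114, 131 and 114 in Shh-MBs, was below every *RBS* lesion, by 0.62 (SE 0.142, adjusted *p* = 0.0055) as deposited, and by -0.23 to 0.24 with the other scalings.

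*Ctnnb1* had 5191, 4737 and 4661 in Shh-MBs and *Gsk3b* 946, 955 and 935. Both were below all eyes. The differences were 0.71 (SE 0.0924, adjusted *p* = 0.000257) for *Ctnnb1* and 0.93 (SE 0.0896, adjusted *p* = 5.16e-05) for *Gsk3b*, which kept its sign under all 3 other scalings and its call under 2. *Apc* had 981, 1256 and 1358 and *Amer1* 117, 166 and 176, with Shh-MB 1 lowest for both. They differed by 0.80 (adjusted *p* = 0.0096) and 0.84 (adjusted *p* = 0.00216). *Axin1* had 174, 172 and 185, just under the lowest *RBS* lesion at 188. Its difference of 0.23 was not called (adjusted *p* = 0.0748), was called higher under 5 alternatives, 1 of them unadjusted (among the others all 12 samples in one fit, adjusted *p* = 0.0375), and was negative under all 3 other scalings and past the threshold with median centring (-0.61, adjusted *p* = 0.00299) and quantile normalization (-0.33, adjusted *p* = 0.0121). *Rnf43* had 9.22, 1.0 and 9.96, and its difference of 0.07 has an interval of -1.58 to 1.73.

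**Figure D2:**
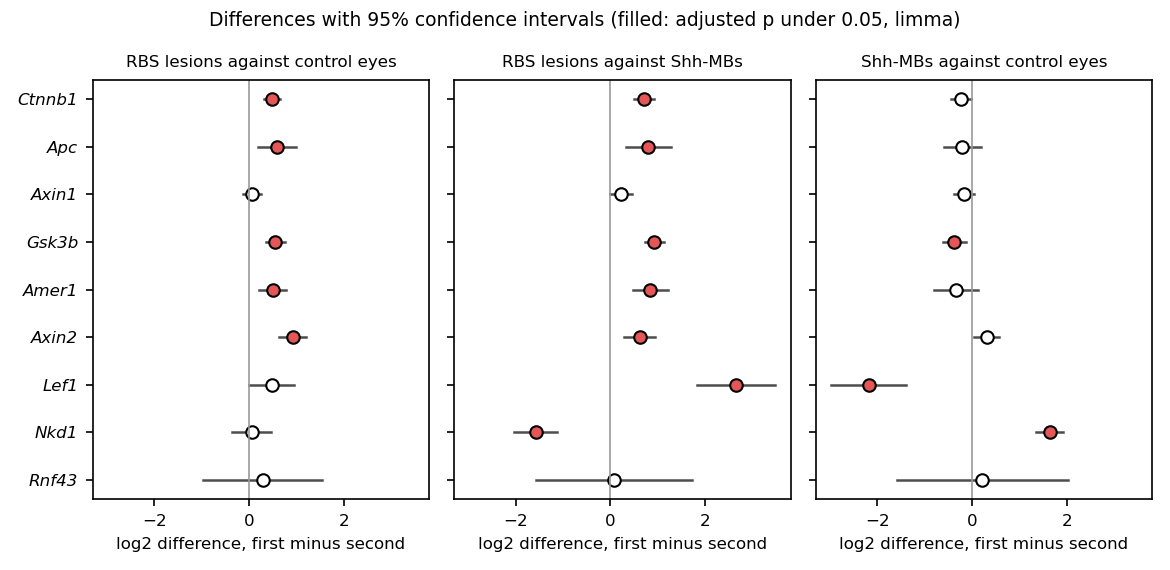
Log2 differences of the 9 genes, first group minus second, with 95% confidence intervals from limma on the deposited scale, for the 3 comparisons. Filled points passed an adjusted *p* of 0.05: *Axin2* stands out against control eyes (0.92), and *Lef1* and *Nkd1* have the largest differences to Shh-MBs, in opposite directions.

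**Figure D3:**
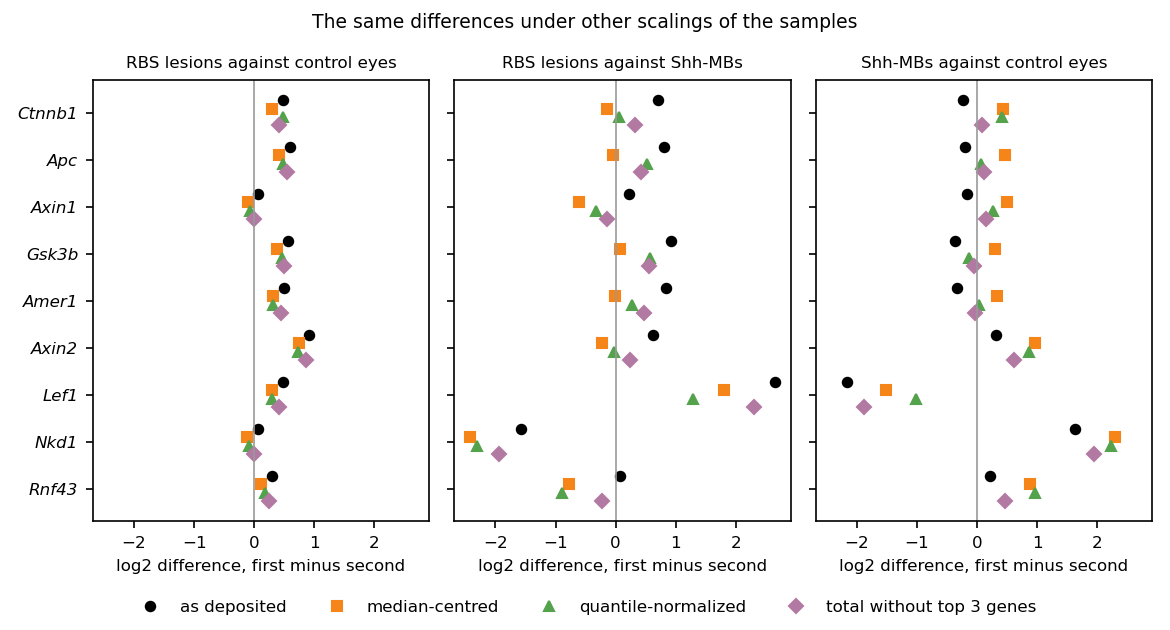
The same log2 differences on the deposited scale and with 3 other scalings of the samples. Against control eyes *Ctnnb1*, *Apc*, *Gsk3b*, *Amer1*, *Axin2* and *Lef1* stay above 0 while *Axin1* and *Nkd1* cross it, whereas for *RBS* lesions against Shh-MBs *Ctnnb1*, *Apc*, *Axin1*, *Axin2* and *Amer1* cross 0 with median centring and *Lef1* and *Nkd1* do not. For Shh-MBs against control eyes *Ctnnb1*, *Apc*, *Axin1*, *Gsk3b* and *Amer1* cross 0 with median centring.

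In the wider pathway, where 48.1% of the panel was called higher and 12.7% lower, 7 of 10 other turnover genes were called higher and 1 lower in *RBS* lesions than in Shh-MBs as deposited, with a median of 0.52, and 0 higher and 7 lower with median centring. *Ppp2r1a* (0.70), *Dvl3* (0.67) and *Cul1* (0.59), the cullin of the beta-catenin ligase, had the largest rises and turned negative with median centring, while *Trp53*, a tumor suppressor linked to beta-catenin turnover, was lower (-1.03) under every scaling. Of 9 nuclear partners 4 were higher and 1 lower as deposited, 2 higher and 4 lower with median centring, and 4 higher and 3 lower with either of the other scalings. *Tcf7l1* was 194 ± 18.6 against 35.7 ± 10.1 and *Ep300* 631 ± 42.0 against 277 ± 10.1, both called under every scaling. *Smarca4*, a chromatin remodeler, was 0.70 higher but not with median centring (-0.15), and *Smad3*, of the TGF-beta pathway, was lower (-0.59).

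Of 8 other feedback genes 3 were higher and 1 lower than in Shh-MBs as deposited, and 2 higher and 2 lower with each of the other scalings. *Wif1* was 133 ± 24.1 against 12.8 ± 4.92 and *Dkk2* 196 ± 30.3 against 2.29 ± 1.19, near the floor. *Dkk1*, a further Lrp6 inhibitor, was 12.2 ± 6.29 against 4.66 ± 0.602, a rise of 1.09 that was called on the deposited scale but under none of the other scalings (-0.13 to 0.77). The decoy *Sfrp1* was lower, at 889 ± 232 against 4530 ± 630. Of the 18 inducible genes 7 were higher and 5 lower as deposited, but 5 higher and 9 lower with median centring, 5 and 6 with quantile normalization and 5 and 7 scaled by the summed signal. *Bmp4* was 127 ± 19.1 against 14.1 ± 10.3, *Vegfa*, the angiogenic factor, 617 ± 258 against 70.3 ± 13.7, and *Fst* 89.2 ± 26.7 against 1.66 ± 0.769, near the floor. *Mycn* was 701 ± 66.4 against 3617 ± 459, the cyclin *Ccnd2* 937 ± 94.8 against 3001 ± 360 and *Fgf9* 61.1 ± 12.7 against 227 ± 10.2. Among the receptors *Fzd8* (2.08), *Fzd9* (1.66) and *Fzd3* (1.35) were higher and *Fzd7* (-0.78) and *Fzd2* (-0.52) lower as deposited, with *Fzd8* near the floor in Shh-MBs (2.67 ± 1.28). Of the 3 other scalings, 2 kept the calls of *Fzd8* and *Fzd3* and 1 that of *Fzd9*, and median centring left 1 receptor higher and 2 lower. *Cdh1* was 200 ± 53.4 against 6.92 ± 8.33, with 1 of 3 Shh-MBs at its lowest value.

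Between Shh-MBs and control eyes, samples already used above, *Nkd1* was 3.11-fold higher in Shh-MBs and *Lef1* 4.51-fold lower. *Gsk3b* was lower by -0.37 (adjusted *p* = 0.0243), a call lost without Shh-MB 2, Shh-MB 3, control eye 1 or control eye 2 (adjusted *p* up to 0.0779) and under all 3 other scalings. So 1 of 9 was called higher and 2 lower, where 9.61% of the panel was called higher, 31.4% lower and 41.0% in either direction, and 6 did not overlap, where 48.2% of the panel did not. The members' median was -0.20 and that of all genes -0.22. Of all calls 23.4% were higher in Shh-MBs as deposited, 69.1% with median centring, 59.9% with quantile normalization and 47.5% scaled by the summed signal.

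Markers moved with both genes: of 12 mesenchymal markers 1 was higher and 9 lower in Shh-MBs (median -4.06), of 8 of the surface epithelium 0 were higher and 6 lower, *Fgf15* was lower (-8.36) and *Zic2* higher (1.87). Their part was not tested.

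The *Nkd1* difference was 1.64 (SE 0.121, interval 1.35 to 1.93, limma adjusted *p* = 7.81e-05), rank 28 from the highest of 770, and 1.95 to 2.30 with the other scalings. The *Lef1* difference was -2.17 (SE 0.333, interval -2.97 to -1.38, adjusted *p* = 0.00218), and it was -0.92 with values under 20 set to 20, and -1.02 and no longer called with quantile normalization (adjusted *p* = 0.117). *Axin2* was higher in each of the 3 Shh-MBs than in any control eye, by 0.31, which did not pass on the deposited scale (adjusted *p* = 0.0638) and passed under all 3 other scalings (0.62 to 0.97). The level of *Axin2* therefore ran from control eyes over Shh-MBs to *RBS* lesions as deposited, the last step depending on the scaling. *Ctnnb1* (-0.23, adjusted *p* = 0.0844), *Apc* (-0.20), *Axin1* (-0.17) and *Amer1* (-0.34) were lower in Shh-MBs without passing, though 4 alternatives, 1 of them unadjusted, called *Ctnnb1* lower (among the others all 12 samples in one fit, adjusted *p* = 0.044) and 1 called *Axin1* lower (values under 20 set to 20, adjusted *p* = 0.0372), and all of them were higher with median centring (0.33 to 0.50). Turned higher by another scaling, *Axin1* also passed the threshold in that opposite direction (limma adjusted *p* down to 0.0208). Some of the members called with median centring had likewise turned higher.

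A ratio of 2 genes within a sample does not change with a factor common to the sample. *Axin2* to *Axin1*, the inducible over the constitutive scaffold, was 0.797, 0.807, 0.931, 1.09 and 0.837 in *RBS* lesions, 0.456, 0.458, 0.476 and 0.577 in control eyes and 0.661, 0.762 and 0.621 in Shh-MBs. The 3 groups did not overlap and ran in the order control eyes, Shh-MBs, *RBS* lesions. The ratio in *RBS* lesions was 1.81-fold that of control eyes (exact permutation test, two-sided, *p* = 0.00794, adjusted *p* over 9 tests = 0.0402) and 1.31-fold higher than in Shh-MBs (exact *p* = 0.0179, adjusted *p* = 0.0402), each the smallest *p* the number of samples allows. Shh-MBs and control eyes differed by 1.39-fold (exact *p* = 0.0571, adjusted *p* = 0.0735). With quantile normalization the first 2 adjusted *p*-values were 0.0514 and 0.161.

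*Lef1* to *Axin1* was 0.16 to 0.402 in *RBS* lesions, 0.168 to 0.228 in control eyes and 0.0271 to 0.0777 in Shh-MBs. Shh-MBs were apart from both kinds of eyes, by 5.36-fold from *RBS* lesions (exact permutation *p* = 0.0179, adjusted *p* = 0.0402) and by 4.03-fold from control eyes (exact *p* = 0.0286, the smallest possible, adjusted *p* = 0.0514). With values under 20 set to 20 the log2 differences, 2.42 and -2.01 as deposited, were 1.17 and -0.75, and with quantile normalization 1.64 and -1.25. *RBS* lesions and control eyes overlapped (0.41 on the log2 scale, exact *p* = 0.159), and without *RBS* 1 the difference was 0.60 (adjusted *p* = 0.0429). *Ctnnb1* to *Gsk3b* was 4.95 in *RBS* 1 and 4.2 to 4.39 in the other lesions, 4.38 to 4.94 in control eyes and 4.96 to 5.48 in Shh-MBs. *RBS* lesions and control eyes overlapped in this ratio (-0.08 on the log2 scale, exact *p* = 0.222). In Shh-MBs the ratio was 1.16-fold higher than in *RBS* lesions (exact *p* = 0.0179, adjusted *p* = 0.0402), with *RBS* 1 just under the lowest Shh-MB. The call was lost with quantile normalization (-0.58, adjusted *p* = 0.0514), with a pseudocount of 5 (adjusted *p* = 0.0643) and in 7 of 8 fits with a sample left out, and that of *Lef1* to *Axin1* against Shh-MBs was lost under the same settings and in as many fits.

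**Figure D4:**
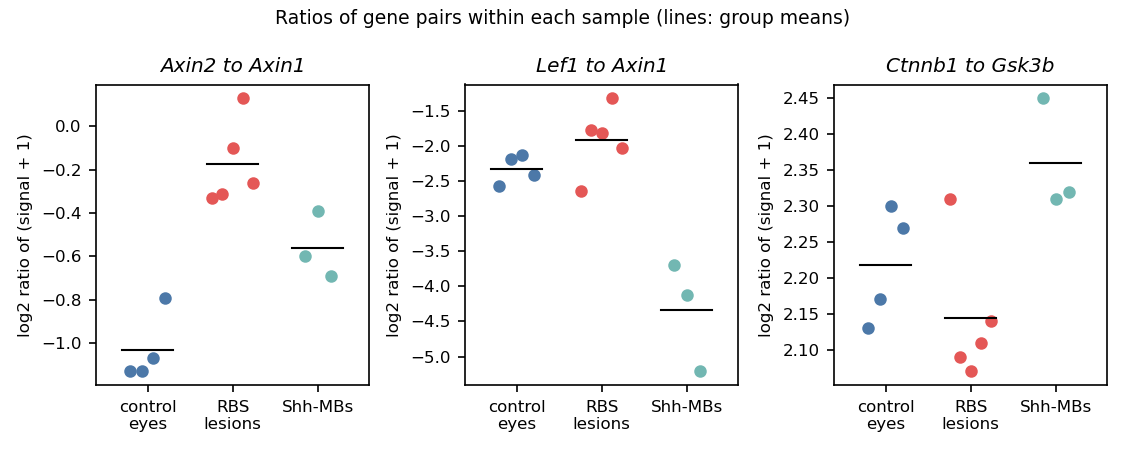
Log2 ratios of the signals (each plus 1) of *Axin2* to *Axin1*, *Lef1* to *Axin1* and *Ctnnb1* to *Gsk3b* in each sample, with lines at the group means. The *Axin2* to *Axin1* ratio is highest in *RBS* lesions and lowest in control eyes without overlap, and the *Lef1* to *Axin1* ratio is lowest in Shh-MBs.

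Panel genes among the 3 closest to *Ctnnb1*, *Axin2* and *Lef1* over the 12 samples were found by the root mean square difference of log2 signals, each gene centred on its mean. For *Ctnnb1* these included *Ppp2cb*, a catalytic subunit of phosphatase 2A (0.0826), and *Mllt4*, the junction protein afadin (0.0835), where the median gene of the panel differed by 0.577. For *Axin2* they included the Ras activator *Sos1* (0.161) and the Notch coactivator *Maml2* (0.186), with a panel median of 0.653. For *Lef1* they were *Rasgrp2*, a Rap activator (0.371), *Pik3r1*, a regulatory subunit of PI3 kinase (0.389), and *Bmp2*, a ligand of the TGF-beta family (0.434), with a panel median of 1.11. *Pik3r1* was at a mean of 808 in control eyes, 1041 in *RBS* lesions and 213 in Shh-MBs, the same order as *Lef1* at 39.0 ± 5.16, 56.3 ± 17.0 and 8.53 ± 4.30. These likenesses describe 12 samples that share tissues and scaling.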

How the data were processed

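RNA of single fresh frozen lesions, tumors or eyes from 12 mice (4 control eyes, 5 *RBS* lesions, 3 Shh-MBs, grouped by the sample labels) was measured on the nCounter panel. Normalization by the authors used nSolver with its Advanced Analysis module. The deposited values are a linear normalized signal, with a background subtracted and the lowest value of a sample as its floor. The background setting, the reference genes and the sex of each sample are not given in the sources used here.

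Values were analysed as log2(signal + 1) of all 770 genes without a filter. Pairs of groups were compared with limma 3.58.1 in R 4.3.3 (eBayes, two-sided, Benjamini-Hochberg adjustment over 770 genes, threshold 0.05). Ratios were compared by exact permutation of the samples with scipy 1.17.1 in Python 3.11.15, adjusted over 9 tests. Alternatives were median centring, quantile normalization, scaling by the summed signal of all but the 3 most abundant genes, a pseudocount of 5, dropping genes whose mean was under log2 of 20, setting values under 20 to 20, limma with trend and robust settings, all 12 samples in one fit, a replicate block, the methods' *t*-test, exact permutation and leaving out each sample. The methods' *t*-test was run as a parametric Welch test, without the permutations of the study. The fit was tested on simulated data without differences of scaling between samples, so the dependence of calls on scaling was not covered.

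Every member was described, and of each pathway list the 3 largest called rises and falls against control eyes and against Shh-MBs, and the 3 genes nearest to *Ctnnb1*, *Axin2* and *Lef1*, of which 2 are not reported here. Lists were written from general knowledge. The members and lists were chosen with earlier results of these data known. Promoter windows are from RefSeq (GRCm38.p6).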

Additional observations from a re-analysis of the deposited data

Results flagged for a closer look

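Within groups of 4 or 5 samples, 18 sets of values were examined for a sample far from the others on the log2(signal + 1) scale, and chance gives such a sample in about 1 of 20. *Nkd1* in *RBS* 5 was 49.0, against 73.8 to 85.6 in the other *RBS* lesions, a gap of 0.733 of the range on the log2(signal + 1) scale, above the critical value of 0.71, and of 0.677 on the linear scale, which is below it. *Rnf43* in *RBS* 2 was 1.0, the lowest value of that sample, against 6.89 to 8.67 in the others, a gap of 0.871 of the range on the log2(signal + 1) scale and 0.768 on the linear scale.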

How the results depend on the processing

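The number of members called in *RBS* lesions against control eyes was 5. It was 3 with median centring and 1 with the methods' *t*-test, without its permutations, and step-down Bonferroni adjustment. Against Shh-MBs it was 7, and 8 under 4 other filters, fits or tests, 3 with median centring, 4 with quantile normalization and 1 with the methods' *t*-test. For Shh-MBs against control eyes it was 3, and 5 with median centring, 6 with values under 20 set to 20 and 0 with the methods' *t*-test, where 6 members had an unadjusted *p* under 0.05 by that test and 5 by limma. Leaving out each sample gave 4 to 6, 7 to 7 and 2 to 4 members. Over all genes that *t*-test, run without the permutations of the study, called 72, 80 and 36 against 394, 468 and 316 with limma.

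With median centring the log2 difference turned to -0.11 for *Axin1* and -0.12 for *Nkd1* against control eyes, to -0.14 for *Ctnnb1*, -0.05 for *Apc*, -0.61 for *Axin1*, -0.23 for *Axin2*, -0.005 for *Amer1* and -0.77 for *Rnf43* against Shh-MBs, and to 0.44 for *Ctnnb1*, 0.47 for *Apc*, 0.50 for *Axin1*, 0.30 for *Gsk3b* and 0.33 for *Amer1* in Shh-MBs against control eyes. With quantile normalization it turned to -0.07 for *Axin1* and -0.09 for *Nkd1* against control eyes, to -0.33 for *Axin1*, -0.02 for *Axin2* and -0.90 for *Rnf43* against Shh-MBs, and to 0.42 for *Ctnnb1*, 0.06 for *Apc*, 0.26 for *Axin1* and 0.04 for *Amer1* in Shh-MBs against control eyes. Scaled to the total it turned to -0.0044 for *Nkd1* against control eyes, to -0.14 for *Axin1* and -0.23 for *Rnf43* against Shh-MBs, and to 0.09 for *Ctnnb1*, 0.12 for *Apc* and 0.15 for *Axin1* in Shh-MBs against control eyes. The cause was not tested. *Rnf43* in *RBS* lesions against Shh-MBs also turned with a pseudocount of 5 (-0.003) and with the replicate block (-0.15). With samples left out, *Rnf43* ranged from -0.13 to 0.71 against control eyes, from -0.73 to 0.50 against Shh-MBs and from -0.20 to 1.02 in Shh-MBs against control eyes, and *Nkd1* against control eyes from -0.02 to 0.20. With values under 20 set to 20 all *Rnf43* values are at the floor and there is no difference to give.

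The ratio tests were near the limit of the design. With quantile normalization *Axin2* to *Axin1* was 0.87 against control eyes and 0.31 against Shh-MBs, *Ctnnb1* to *Gsk3b* -0.58 and *Lef1* to *Axin1* 1.64 against Shh-MBs, and with a pseudocount of 5 they were 0.83, 0.37, -0.21 and 1.96, none with an adjusted *p* under 0.05. With values under 20 set to 20, *Lef1* to *Axin1* was 1.17 against Shh-MBs and -0.75 for Shh-MBs against control eyes (-2.01 as deposited), and in that last comparison it was -1.25 with quantile normalization and -1.58 with a pseudocount of 5. With samples left out they ranged from 0.78 to 0.94, 0.31 to 0.47, -0.26 to -0.17 and 1.99 to 2.75. Their calls were lost in 4 of 9, 7 of 8, 7 of 8 and 7 of 8 of these fits (adjusted *p* up to 0.0735, 0.143, 0.12 and 0.12), where fewer samples also raise the smallest possible *p*. *Lef1* to *Axin1* against control eyes ranged from 0.26 to 0.60.

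The labels do not say whether replicate numbers pair the samples. The deviations of same-numbered samples correlated at -0.148 to 0.188 for *RBS* lesions and control eyes, where other numbers gave -0.257 to 0.197. For *RBS* lesions and Shh-MBs the ranges were -0.017 to 0.084 and -0.111 to 0.114. For Shh-MBs and control eyes they were -0.081 to -0.017 and -0.075 to 0.112. With 3 or 4 same-numbered pairs in a comparison, these values cannot exclude a pairing. With a replicate block, in which a sample without a partner of its number carries no weight, 4, 6 and 2 members were called, and 301, 407 and 230 of all genes. The calls lost were *Apc* against control eyes (0.54, adjusted *p* = 0.0754), *Axin2* against Shh-MBs (0.55, adjusted *p* = 0.0606) and *Gsk3b* in Shh-MBs against control eyes (-0.38, adjusted *p* = 0.103). Signal over background limits *Rnf43* in all samples and *Lef1* in Shh-MBs.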
